A study of Mus musculus with 10 samples.

Results

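The VEGF system was followed through 9 genes, the ligands Vegfa, Vegfb, Vegfc and Pgf, the receptor kinases Kdr, Flt1 and Flt4, and the coreceptors Nrp1 and Nrp2. They were taken by name from count files of 24538 genes and from a table of FPKM (fragments per kilobase of transcript, scaled to library depth) for 24460 genes, and all 9 were present in both. RNA of CD31+/CD45- cells made up 10 libraries, with 5 of normal lung and 5 of lung metastases that had been dissected out, all of wild-type C57BL6/J mice with an age tag of 8 to 10 weeks. For the metastases, cells of the mouse mammary tumour line E0771-LG were injected into tail veins of females aged 6 to 8 weeks, so the lung was seeded from blood and not from a tumour in the mammary gland. Nodules under 1 mm across were pooled from 2 to 4 mice. The normal lungs are labelled as processed in parallel, and no treatment of them is given. Digestion for 30 min with alpha-amanitin and actinomycin D, both inhibitors of transcription, is described alike for both groups. The labels do not say that each library came from separate animals, so p-values measure the spread between these libraries.

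VEGFA is the main growth factor of blood vessels and acts chiefly through KDR (VEGF receptor 2), the kinase that drives endothelial division, migration and permeability. FLT1 (VEGF receptor 1) binds VEGFA tightly with little signalling and is known as a decoy, and it also takes VEGFB and PGF. FLT4 (VEGF receptor 3) binds VEGFC and is the receptor of lymphatic growth, though lung capillaries carry it as well. The neuropilins have no kinase and present ligands to these receptors. NRP1 is typical of arterial and capillary endothelium, and NRP2 of veins, lymphatics and several cell types outside the vessel wall.

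Gene counts came to between 41.0 and 79.7 M per library in normal lung and between 21.7 and 54.3 M in metastases, and reads outside annotated features made up 55.4 to 64.7% and 57.9 to 73.7% of everything HTSeq counted. Of all 11823 tested genes, 8.22% were called lower and 12.0% higher in metastases (edgeR, Benjamini-Hochberg adjusted p under 0.05). Beside these shares, 17 of 21 pan-endothelial marker genes fell and none of the other 4 rose. Their mean level, as a percentage of the normal mean, was 33.2, 25.4, 20.7, 9.50 and 8.42% in metastasis libraries 1 to 5, and 80.5 to 163% in normal lung. Summed markers of macrophages, fibroblasts and leukocytes moved the other way. Summed macrophage markers (11 genes, 4 of 7 tested rose) lay at 46.7 to 211 CPM in normal lung and 929 to 1842 CPM in metastases, where CPM are counts per unit of library depth, scaled by the TMM method. Most of the sum in metastases was Lyz2 (723 ± 358 CPM) and Itgam (315 ± 267 CPM; SD, n = 5). The macrophage markers Cd68, Csf1r and Mrc1 were not called. Fibroblast markers (9 genes, 6 of 8 tested rose) went from 48.7 to 89.8 CPM up to 489 to 2358 CPM, and leukocyte markers (9 genes, 3 of 6 tested rose) from 8.49 to 36.1 CPM up to 122 to 235 CPM. The leukocyte sum in metastases was mostly Ptprc, at 84.0 to 154 CPM. Platelet markers (6 genes, 2 of 6 rose) spanned 183 to 916 CPM and 671 to 12139 CPM. Epithelial and tumour markers (13 genes, 1 of 5 tested rose and 1 fell; Krt5 at 0 throughout) spanned 10.8 to 754 CPM and 23.6 to 171 CPM. The gene that fell was Scgb1a1, at 752 and 558 CPM in normal libraries 3 and 5 and 3.57 to 23.9 CPM in the other normal libraries. Krt8 was the gene that rose, from 0.162 to 0.339 CPM up to 4.61 to 42.2 CPM (edgeR adjusted p = 0.000497). All 10 proliferation genes rose. Pericyte and smooth muscle markers (10 genes, 1 of 5 tested fell) spanned 11.9 to 68.9 and 12.8 to 102 CPM, and the 4 mesothelial markers were all under the filter.

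The promoters of Kdr, Flt1, Flt4, Nrp1 and Nrp2 are given because their genes moved clearly and not all in the same direction. Kdr, Flt1, Flt4 and Nrp1 fell together, and Nrp2 rose. The 250 bases before the start site are from the RefSeq promoter table (GRCm38.p6), in which all 9 genes matched by symbol. They lie at chr5:75978456-75978705 (Kdr, minus strand), chr5:147726012-147726261 (Flt1, minus strand), chr11:49609429-49609678 (Flt4, plus strand), chr8:128358823-128359072 (Nrp1, plus strand) and chr1:62703067-62703316 (Nrp2, plus strand). Start sites differ between this table and GENCODE M21, from which the gene positions below are taken. By those positions the Flt4 and Nrp1 windows lie inside the genes, which begin at 49609263 and 128358604. The Kdr and Nrp2 windows reach into theirs in part. Capitals mark the core letters bound by hypoxia-inducible factors (ACGTG or GCGTG) and ETS letters (AGGAAG or CGGAAG only), on either strand.
Kdr: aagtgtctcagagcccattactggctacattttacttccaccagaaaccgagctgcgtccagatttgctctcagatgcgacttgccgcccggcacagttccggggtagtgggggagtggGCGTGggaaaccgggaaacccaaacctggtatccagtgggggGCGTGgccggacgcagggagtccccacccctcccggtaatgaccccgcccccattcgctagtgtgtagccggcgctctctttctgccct
Flt1: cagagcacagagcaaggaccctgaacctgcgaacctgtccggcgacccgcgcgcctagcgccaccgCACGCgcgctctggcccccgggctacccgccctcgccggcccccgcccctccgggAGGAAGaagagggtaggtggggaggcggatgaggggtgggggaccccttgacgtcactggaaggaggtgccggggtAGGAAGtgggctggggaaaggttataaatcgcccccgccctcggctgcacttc
Flt4: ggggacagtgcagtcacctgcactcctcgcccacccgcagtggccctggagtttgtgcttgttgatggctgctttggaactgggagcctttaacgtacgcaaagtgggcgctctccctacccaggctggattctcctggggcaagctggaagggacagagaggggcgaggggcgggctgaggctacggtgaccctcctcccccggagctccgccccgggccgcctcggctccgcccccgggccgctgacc
Nrp1: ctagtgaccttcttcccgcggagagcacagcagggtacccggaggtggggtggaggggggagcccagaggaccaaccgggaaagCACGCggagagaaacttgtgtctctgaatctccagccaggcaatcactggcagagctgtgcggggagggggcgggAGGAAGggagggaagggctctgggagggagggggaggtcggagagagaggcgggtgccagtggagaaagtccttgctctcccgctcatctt
Nrp2: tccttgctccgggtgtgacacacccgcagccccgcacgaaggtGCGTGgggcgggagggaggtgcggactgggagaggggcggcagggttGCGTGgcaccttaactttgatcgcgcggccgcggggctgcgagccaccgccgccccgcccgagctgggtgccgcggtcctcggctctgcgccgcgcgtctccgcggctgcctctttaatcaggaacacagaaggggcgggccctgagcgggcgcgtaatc

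Of these, the Flt1 window held 2 ETS matches, 129 and 53 bases before the start, and the Nrp1 window held 1 at 91 bases. Neither AGGAAG nor CGGAAG was found in the windows of Kdr, Flt4, Nrp2 or any ligand, and shorter ETS strings were not searched. The hypoxia core was matched at 131 and 89 bases in Kdr, at 184 in Flt1, at 166 in Nrp1 and at 207 and 160 in Nrp2, and also in the windows of Vegfb and Pgf, with none in those of Flt4, Vegfa and Vegfc. Such matches were common, since 38.6% of 32851 promoter windows of this length held the hypoxia core and 39.2% held these ETS letters. The promoters of the genes that fell and of the gene that rose thus shared the hypoxia letters in part. All 9 windows were rich in G and C (59.2 to 76.4%, against a median of 52.4% over all windows). A match is a string of letters and not a measured site.

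Of the 9 genes, 8 passed the filter on low counts and Pgf did not. In metastases 5 of the 8 were lower (Kdr, Flt1, Flt4, Nrp1, Vegfa), 1 was higher (Nrp2) and 2 did not pass (Vegfb, Vegfc; edgeR quasi-likelihood test, Benjamini-Hochberg adjusted p under 0.05 over all tested genes). Across all 11823 tested genes, 8.22% were lower and 12.0% higher under the same rule. The groups did not overlap in 6 of the 8 members, against 14.7% of tested genes (5 members lower against 6.17%, and 1 higher against 8.50%). DESeq2 and limma on log2(FPKM + 1) called the same 5 members lower and Nrp2 higher, beside 12.6 and 18.0% of genes in DESeq2 and 5.93 and 7.03% in limma. The median log2 fold change of the 8 members was -1.59, and that of all tested genes was 0.06.

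**Figure D1:**
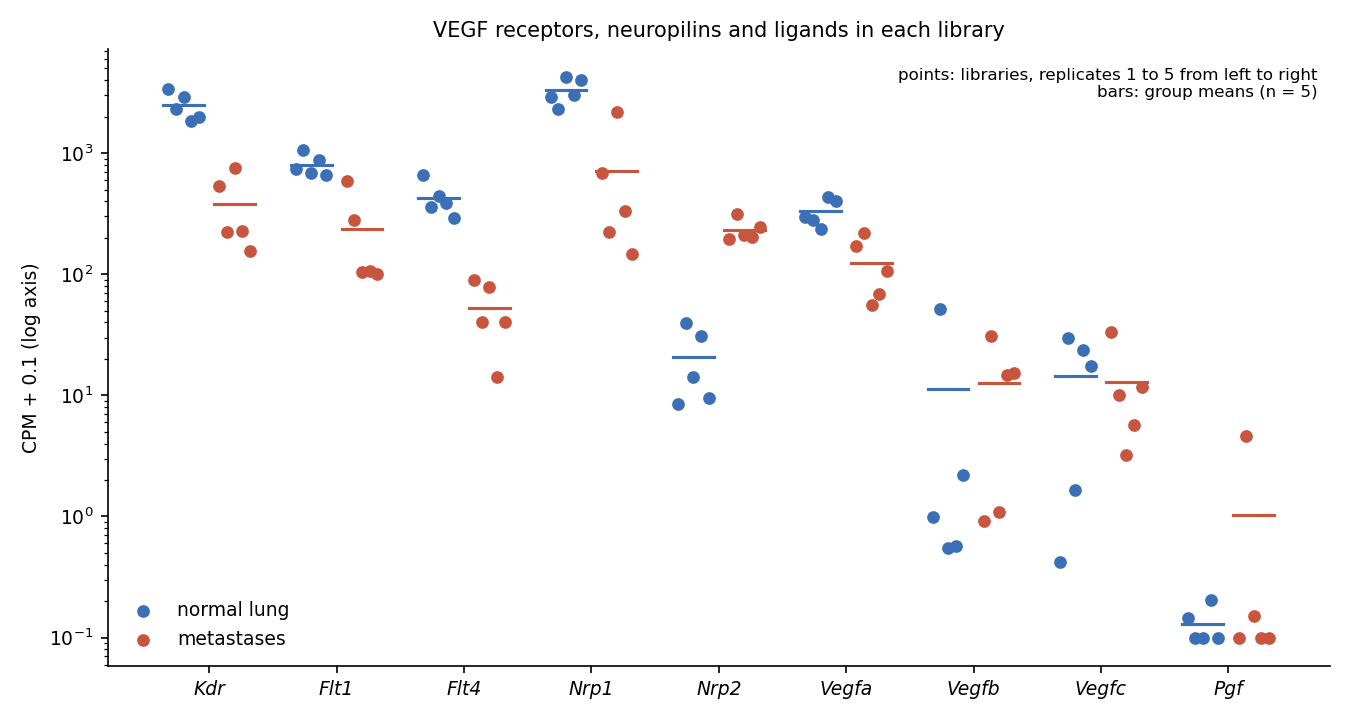
Level of each gene in each library (points; normal lung in blue, metastases in red, replicates 1 to 5 from left to right) as CPM + 0.1 on a log axis, with group means as bars (n = 5 each). The receptors, Nrp1 and Vegfa lie lower in all metastasis libraries, Nrp2 lies higher, and the points of Vegfb and Vegfc spread over more than a power of 10 within a group.

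The 3 receptor kinases were all lower in metastases. Kdr (chromosome 5, 75932827 to 75978458) stood at 3402, 2306, 2892, 1837 and 2000.4 CPM in normal libraries 1 to 5 and at 537, 224, 756, 226 and 156 CPM in metastasis libraries 1 to 5. The lowest normal library was thus above the highest metastasis library, and within metastases libraries 1 and 3 were the high ones. The means were 2487 ± 651 and 379.8 ± 257 CPM (SD, n = 5 each), a 6.55-fold fall (log2 fold change -2.71 ± 0.43 SE; edgeR adjusted p = 8.78e-05). In RNA of a sorted population, fewer cells of a type and less RNA per cell cannot be told apart, and in the same libraries the pan-endothelial genes fell to 8.42 to 33.2% of their normal mean.

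Flt4 (chromosome 11, 49609263 to 49652739) moved by the largest amount among the receptors. Its normal libraries gave 656, 359, 441, 384 and 292 CPM, and its metastasis libraries 88.9, 40.3, 78.2, 14.2 and 40.2 CPM. Metastasis library 4 was the lowest and the groups were far apart. The log2 fold change of -3.03 ± 0.48 SE (edgeR adjusted p = 8.78e-05) was matched or exceeded downwards by 5.29% of tested genes, and that of Kdr by 6.89%. Of 7 lymphatic markers, which Flt4 accompanies in lymphatic vessels, 3 were tested and Mmrn1 rose. Prox1, the defining transcription factor of lymphatic cells, was at 2.78 ± 3.22 CPM in normal lung and 0.414 ± 0.557 CPM in metastases (SD, n = 5 each; edgeR adjusted p = 0.266), and Ccl21a was at 0 in every library. The part of lymphatic cells in the Flt4 level was not tested.

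Flt1 (chromosome 5, 147561604 to 147726011), the decoy receptor, fell least of the kinases. It was at 744, 1052, 689, 875 and 656 CPM in normal lung and at 586, 281, 104, 107 and 99.5 CPM in metastases. Metastasis library 1 came close to the lowest normal library, and libraries 3 to 5 were within a narrow band far below. The fall was 3.41-fold (-1.77 ± 0.46 SE, edgeR adjusted p = 0.00785). Between libraries 1 and 2 alone it was -1.03 (edgeR adjusted p = 0.336), among libraries 3 to 5 alone -2.85 (edgeR adjusted p = 0.000702), and without metastasis library 1 it was -2.47 (edgeR adjusted p = 0.000228). Without metastasis libraries 4 and 5, those of lowest pan-endothelial level, it was -1.34 and missed the threshold (edgeR adjusted p = 0.0654). With either of them left out singly it stayed called, at -1.59 without library 4 and -1.58 without library 5 (edgeR adjusted p = 0.0251 and 0.023). Counts per gene do not separate the membrane form of Flt1 from the soluble form made from the same gene.

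The mix of the kinases was compared on the FPKM scale, which takes transcript length into account. Kdr held 65.8 ± 5.78% of the summed FPKM of the 3 kinases in normal lung and 57.3 ± 14.9% in metastases, Flt1 19.3 ± 4.97% and 31.4 ± 14.4%, and Flt4 14.9 ± 2.53% and 11.3 ± 4.82% (SD, n = 5 each). Metastasis libraries differed among themselves, with Flt1 at 42.7 and 46.6% in libraries 1 and 2 and at 10.1% in library 3. The log2 ratio of Flt1 to Kdr (FPKM + 0.1) was -2.37, -1.38, -2.25, -1.25 and -1.76 in normal lung and -0.13, 0.11, -2.95, -1.21 and -0.84 in metastases. Its mean difference of 0.80 did not pass (exact permutation test, two-sided, p = 0.222, adjusted over 6 ratios 0.267). Without metastasis library 3, the one below all normal libraries, the difference was 1.28 (exact permutation test, adjusted p = 0.0238). For Flt4 to Kdr the difference was -0.24 (exact permutation p = 0.54, adjusted 0.54).

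The neuropilins moved in opposite directions. Nrp1 (chromosome 8, 128358604 to 128503363) was at 2886, 2308, 4221, 3016 and 3989.7 CPM in normal lung. In metastases it was at 689, 223, 2194, 335 and 146 CPM. Metastasis library 3 came close to the lowest normal library, and the other 4 lay well below it. The mean went from 3284 ± 799.8 to 717 ± 852 CPM (SD, n = 5 each; -2.19 ± 0.54 SE, edgeR adjusted p = 0.00503). Without metastasis library 3 the log2 fold change was -3.26 (edgeR adjusted p = 2.11e-05), and among libraries 3 to 5 alone it was -2.09 (edgeR adjusted p = 0.0751). A microRNA gene, Mir1903, shares 0.818% of the exon bases of Nrp1, and the other 8 genes share none with another gene (GENCODE M21).

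Nrp2 (chromosome 1, 62703285 to 62818695) was the member that rose. Its normal libraries gave 8.39, 39.7, 14.1, 30.8 and 9.43 CPM, and its metastasis libraries 197, 313, 212, 201 and 246 CPM. Every metastasis library was above every normal one. Means were 20.5 ± 14.0 and 234 ± 48.3 CPM (SD, n = 5 each), an 11.4-fold rise (3.51 ± 0.54 SE, edgeR adjusted p = 6.31e-05). Metastasis libraries varied less for Nrp2 (coefficient of variation 20.7%) than for any other member (56.1 to 119% for Kdr, Flt1, Flt4, Nrp1 and Vegfa). The same libraries carried the higher macrophage, fibroblast and proliferation markers given above, and Itgam, an integrin of myeloid cells, went from 7.92 ± 5.37 to 315 ± 267 CPM (edgeR adjusted p = 6.35e-06). The CD31+/CD45- gate is meant to remove leukocytes by CD45 and fibroblasts by the lack of CD31, but Ptprc, the gene of CD45, was at 17.8 ± 7.31 CPM in normal lung and 121 ± 25.6 CPM in metastases (SD, n = 5 each; log2 fold change 2.77 ± 0.57 SE, edgeR adjusted p = 0.0012). Krt8, of the epithelial and tumour list, rose as well. The part of leukocytes, fibroblasts and tumour cells in the Nrp2 level was not tested.

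On the FPKM scale Nrp1 held 98.1 to 99.7% of the summed neuropilin signal in normal lung. In metastasis libraries 1 to 5 it held 75.4, 36.5, 88.3, 52.4 and 26.8%, so that Nrp2 was the larger part in libraries 2 and 5. The log2 ratio of Nrp2 to Nrp1 (FPKM + 0.1) was -8.23, -6.62, -7.62, -5.69 and -7.56 in normal lung and -1.62, 0.80, -2.91, -0.14 and 1.44 in metastases. The groups did not overlap and the mean difference was 6.66 (exact permutation test, two-sided, p = 0.00794, the smallest that 5 against 5 allow; adjusted over 6 ratios 0.0476). It was the 1 ratio of 6 that passed. With metastasis libraries 4 and 5 left out the difference was 5.90 (exact permutation test, adjusted p = 0.107), in a design whose smallest unadjusted p is 0.0179.

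**Figure D2:**
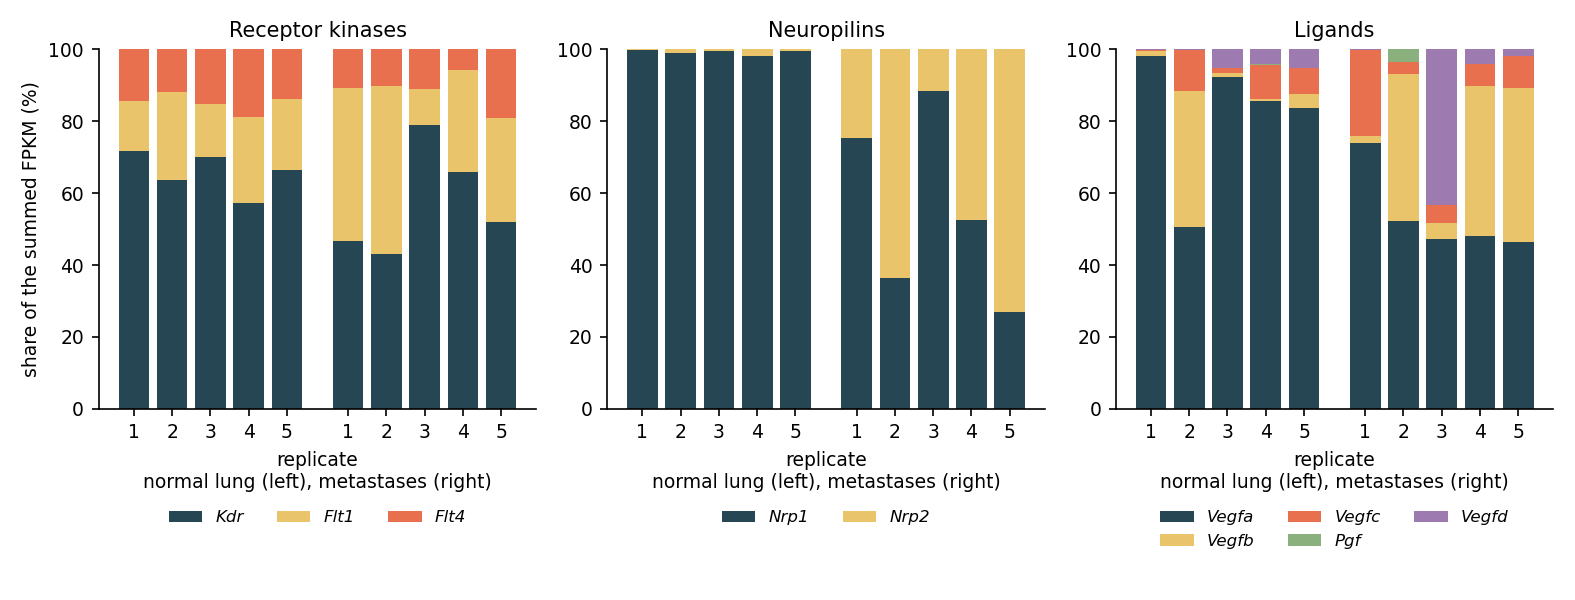
Share of the summed FPKM (%, bars stacked to 100) held by each receptor kinase, neuropilin and ligand in replicates 1 to 5 of normal lung (left bars) and metastases (right bars). Nrp2 is under 2% of the neuropilin sum in normal lung and 11.7 to 73.2% in metastases, while the shares of Vegfb and Vegfd vary between single libraries.

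Among the ligands, Vegfa was the one that passed. Vegfa (chromosome 17, 46016993 to 46032369) was at 298, 281, 236, 437 and 403 CPM in normal lung and at 170.4, 219, 55.6, 68.8 and 105 CPM in metastases. Metastasis library 2 came nearest to the lowest normal library, at 219 against 236 CPM. Means were 331 ± 85.4 and 124 ± 69.4 CPM (SD, n = 5 each), a 2.67-fold fall (-1.42 ± 0.43 SE, edgeR adjusted p = 0.021). This was the least firm of the calls. It missed the threshold at log2 fold changes of -1.33 without normal library 4 (edgeR adjusted p = 0.0529), -1.28 without metastasis library 4 (0.0585), -1.19 without metastasis libraries 4 and 5 (0.121) and -1.15 with library totals as the scale (0.0508). Between libraries 1 and 2 alone the log2 fold change was -0.55 (edgeR adjusted p = 0.708), and among libraries 3 to 5 alone it was -2.24 (edgeR adjusted p = 0.0078). The deposited counts are per gene, so the splice forms of Vegfa, which differ in their hold on the matrix and on neuropilins, were not separated.

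Vegfb and Vegfc, the ligands of FLT1 and of FLT4, were read out unevenly. Vegfb (chromosome 19, 6982473 to 6987651) was at 0.888, 51.5, 0.447, 0.469 and 2.11 CPM in normal lung and at 0.812, 31.1, 0.992, 14.7 and 15.2 CPM in metastases. The values formed a low set, under 3 CPM, and a high set, and both groups had libraries in each. The log2 fold change was 0.18 ± 1.30 SE (edgeR adjusted p = 0.942), and 3.65 (edgeR adjusted p = 0.0845) without normal library 2. Vegfc (chromosome 8, 54077606 to 54187096) was at 0.322, 29.5, 1.55, 23.4 and 17.3 CPM in normal lung and at 33.3, 10.0, 3.13, 5.63 and 11.6 CPM in metastases. It differed 91.7-fold between the highest and lowest normal library, and its log2 fold change of -0.18 ± 1.08 SE (edgeR adjusted p = 0.932) leaves changes of several-fold in either direction undetectable. The coefficients of variation of Vegfb were 204 and 99.6% and those of Vegfc 90.5 and 94.1% (normal lung and metastases). Medians over the 2038 tested genes with a mean of 8 to 17 CPM were 88.1 and 100.9%, so a wide spread was usual at this level.

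Pgf, placental growth factor, a ligand of FLT1 (chromosome 12, 85166635 to 85177790), was nearly absent. Normal libraries 1 to 5 had 3, 0, 0, 4 and 0 counts and metastasis libraries 1 to 5 had 0, 298, 1, 0 and 0 counts. Metastasis library 2 alone, at 4.56 CPM, was above the few counts of the others. A count of 0 allows up to 0.0359 to 0.106 CPM (3 counts) in the 6 libraries without a read, for counting error only. Pgf was under the filter and was not tested.

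Levels of different members were ordered by median FPKM. In normal lung the order was Kdr (474), Nrp1 (462), Flt1 (140.2), Flt4 (122), Vegfa (105), Vegfc (12.0), Nrp2 (3.15), Vegfb (1.39) and Pgf (listed at 0). Kdr exceeded Nrp1 in 3 of 5 normal libraries and Flt1 exceeded Flt4 in 3 of 5, so neither pair was separated beyond the spread. Kdr and Nrp1 each exceeded Flt1 in 5 of 5. In metastases the order was Nrp2 (50.2), Nrp1 (45.0), Kdr (44.7), Vegfa (33.9), Vegfb (21.2), Flt1 (19.3), Flt4 (11.2), Vegfc (4.30) and Pgf (listed at 0). There Nrp2 exceeded Nrp1 and Kdr in 2 of 5 libraries each and Vegfa in 3 of 5, so the top 4 overlapped, while it exceeded Flt4 in 5 of 5. Vegfa exceeded Flt1 in 1 of 5 normal and 4 of 5 metastasis libraries.

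The receptor levels were then set against the endothelial genes of the same library. For each library the mean log2 CPM of the 21 pan-endothelial markers was subtracted from that of the member, a value that library scaling does not move. Kdr lay 2.77 ± 0.31 above the endothelial mean in normal lung and 2.40 ± 0.75 above it in metastases (log2, SD, n = 5 each; exact permutation p = 0.349, adjusted over all tested genes 0.44). Flt1 lay at 1.16 ± 0.46 and 1.57 ± 0.66 (exact permutation p = 0.278, adjusted 0.367), Nrp1 at 3.17 ± 0.69 and 2.87 ± 1.34 (exact permutation p = 0.651, adjusted 0.72), and Flt4 at 0.21 ± 0.26 and -0.46 ± 0.74 (exact permutation p = 0.111, adjusted 0.177). The groups overlapped for all 4. These tests do not show that the levels per endothelial transcript were equal. Mean differences were -0.37 for Kdr, -0.67 for Flt4, -0.31 for Nrp1 and 0.41 for Flt1. No member was called lower against the endothelial mean (0 at an adjusted and 0 at an unadjusted p under 0.05 in the permutation test). In edgeR on a scale set by these genes it was also 0. Of all tested genes, only 0.338% were called lower in the permutation test (adjusted p under 0.05) and 0.169% in edgeR. The lack of a call thus did not set the members apart.

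Nrp2 was the 1 member above, at -4.39 ± 1.19 in normal lung and 1.93 ± 0.90 in metastases (log2, SD, n = 5 each; difference 6.33, exact permutation p = 0.00794, adjusted over all tested genes 0.0256). Higher against the endothelial mean under the same rule were 37.5% of tested genes, so this call did not set Nrp2 apart. Without metastasis libraries 4 and 5 the difference was 5.74 (exact permutation test, adjusted p = 0.0645). Vegfa was at -0.14 ± 0.64 and 0.85 ± 0.84 (exact permutation p = 0.0714, adjusted 0.126). Vegfc differed by 3.23 (exact permutation p = 0.0397, adjusted 0.081) and Vegfb by 4.14 (exact permutation p = 0.0635, adjusted 0.116). In edgeR with the pan-endothelial scale, Flt1, Nrp1 and Vegfa turned to 0.47, 0.11 and 1.06 and Kdr and Flt4 to -0.25 and -0.54, none called, as that scale raises the median of all genes by 2.69. Nrp2 was at 6.21 and called, as were 59.6% of tested genes upwards.

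**Figure D3:**
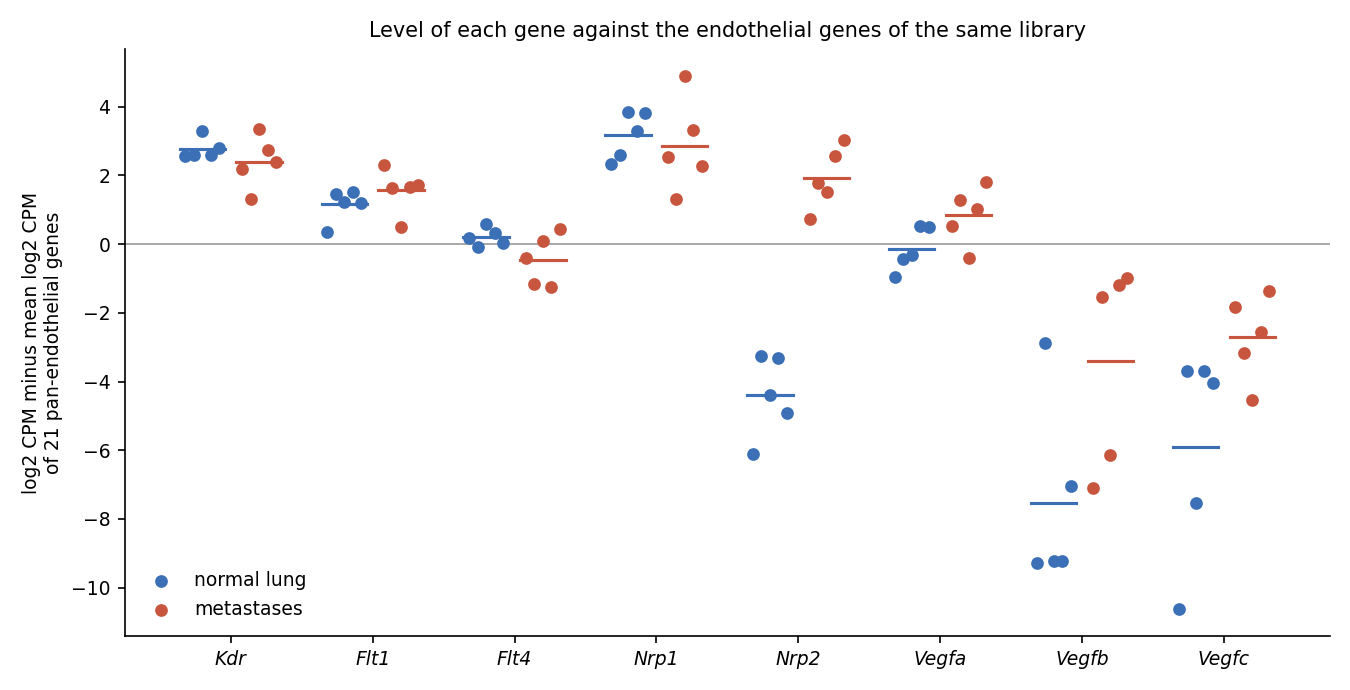
log2 CPM of each gene minus the mean log2 CPM of 21 pan-endothelial genes in the same library (points; normal lung in blue, metastases in red; bars are group means, n = 5). The groups overlap for Kdr, Flt1, Flt4 and Nrp1, and they are apart for Nrp2, at -6.10 to -3.26 against 0.74 to 3.04.

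Sets of libraries gave the same signs for the receptors and neuropilins. Between libraries 1 and 2 alone, Kdr, Flt4 and Nrp1 fell and Nrp2 rose (1.60% and 3.87% of tested genes). Among libraries 3 to 5 alone, Kdr, Flt1, Flt4 and Vegfa fell and Nrp2 rose (6.39% and 9.29%). Kdr was at -2.89 and -2.58 in these sets, Flt4 at -2.95 and -3.09, and Nrp2 at 3.42 and 3.58. With metastasis libraries 4 and 5 left out, Kdr, Flt4 and Nrp1 fell and Nrp2 rose (4.21% and 9.08%).

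**Figure D4:**
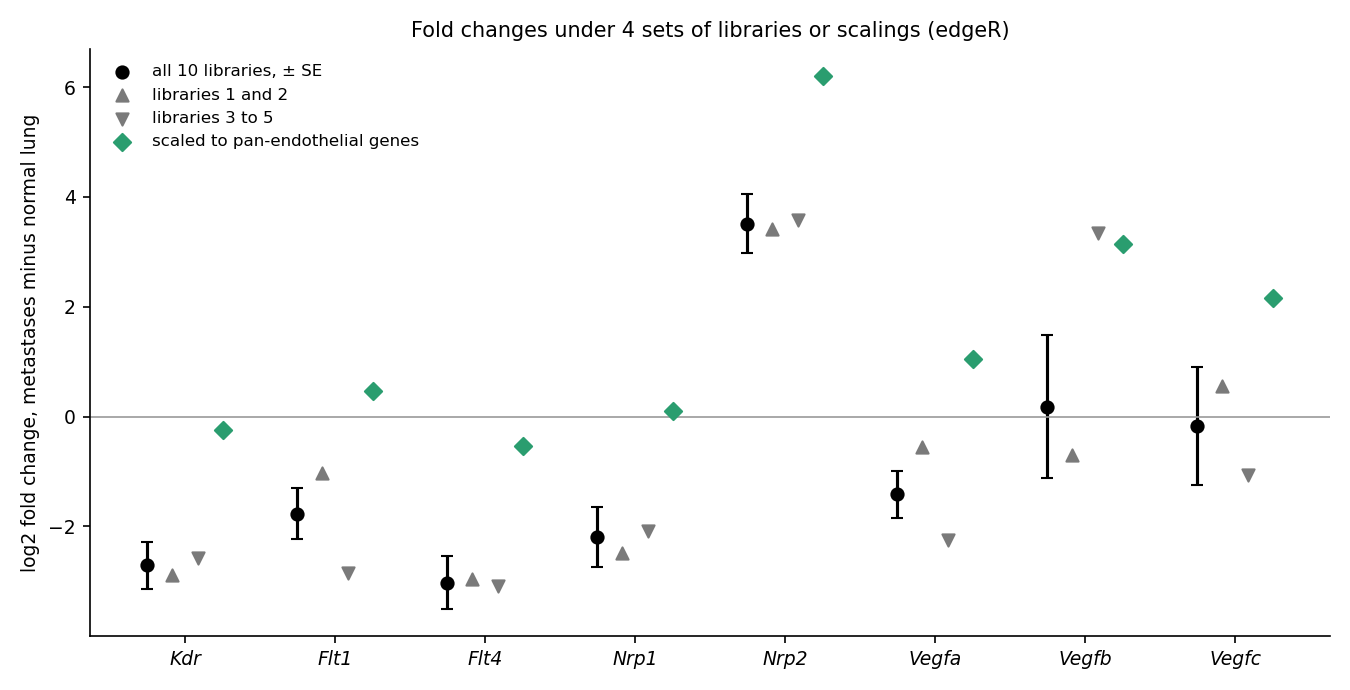
log2 fold change (metastases minus normal lung, edgeR) of the 8 tested members with all libraries (black, ± SE), with libraries 1 and 2 or 3 to 5 alone (grey triangles), and after scaling to pan-endothelial genes (green diamonds). Nrp2 is at 3.42 or higher in all 4, and the receptors move from between -3.03 and -1.77 to between -0.54 and 0.47 with the endothelial scale.

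Other genes of the pathway were counted from 6 lists, of which 110 different genes were tested. Of these, 16 rose (14.5%) and 24 fell (21.8%), with a median log2 fold change of -0.03, beside 12.0% and 8.22% of all tested genes. Of 20 tested partners and inhibitors of the receptors, 2 rose and 6 fell (median -0.85). Of the 6, Cdh5, Robo4 and Clec14a are also among the 21 pan-endothelial markers, whose fall is given above. With the pan-endothelial scale 0 pathway genes were called lower, beside 0.169% of all tested genes. Those that fell included Clec14a, an endothelial surface lectin (-2.95 ± 0.47 SE, edgeR adjusted p = 8.55e-05), and Myo6, a motor that carries receptors inwards (-2.79 ± 0.52, 0.000471). Ptprb, the phosphatase that restrains KDR at junctions, was at -2.04 ± 0.51 (edgeR adjusted p = 0.00592). Dab2, an adaptor of receptor uptake, rose 4.97-fold (2.31 ± 0.45 SE, edgeR adjusted p = 0.000732), and Itgav, an integrin chain that pairs with KDR, rose 3.44-fold (1.78 ± 0.45, 0.00592). Macrophages and fibroblasts, which the gate is meant to remove, also express these genes. Their markers and Ptprc rose in the same libraries as given above, and their part in these values was not tested.

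Of 37 genes of signalling below the receptors, 3 rose and 4 fell (median -0.21), beside 12.0% and 8.22% of all tested genes. These counts lay near the shares of all genes, so the list as a whole was not set apart. Plcg1, the phospholipase that docks on activated KDR, was at 164 ± 71.5 CPM in normal lung and 15.2 ± 6.30 CPM in metastases (SD, n = 5 each), a 10.7-fold fall (edgeR adjusted p = 0.000141). Prkd1, a kinase below it, fell 21.7-fold (-4.44 ± 1.12 SE, edgeR adjusted p = 0.00606). Src and Sh2d2a, a kinase and the adaptor that brings it to KDR, rose from under 1 CPM to 17.8 ± 20.0 and 6.92 ± 8.02 CPM (SD, n = 5; edgeR adjusted p = 0.00121 and 0.0113). Src was at 52.5 CPM in metastasis library 1 and at 2.73 to 14.8 CPM in the other metastasis libraries. Sh2d2a was at 20.7 CPM in metastasis library 2 and at 0.494 to 6.66 CPM in the others. The part of leukocytes and other cells in these values was not tested. Nos3, the endothelial nitric oxide synthase, did not pass (-1.55 ± 1.30 SE, edgeR adjusted p = 0.457).

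Genes that VEGFA induces in endothelium did not move as a block. Of 22 tested, 3 rose and 7 fell (median -0.32), beside 12.0% and 8.22% of all tested genes. Birc5 and Nr4a2 rose by 6.97 ± 1.11 and 2.27 ± 0.51 (log2, SE; edgeR adjusted p = 9.1e-05 and 0.00266), and Birc5 is also a gene of cell division, all of whose 10 listed markers rose. Stc1 and Hlx were at -3.21 ± 1.01 and -2.98 ± 0.87 (edgeR adjusted p = 0.0264 and 0.0161). Esm1 and Angpt2, sprouting genes of tip cells, were at -1.42 ± 0.92 and -0.22 ± 0.78 (edgeR adjusted p = 0.315 and 0.883).

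Semaphorins and plexins, which share the neuropilins with VEGF, mostly fell. Of 10 tested, 1 rose and 6 fell (median -1.58), beside 12.0% and 8.22% of all tested genes. Sema3a, a secreted NRP1 ligand, was at 64.6 ± 31.8 CPM in normal lung and 411 ± 248 CPM in metastases (SD, n = 5 each), a 6.36-fold rise (edgeR adjusted p = 0.000509). Sema3b and Sema3g were at -4.66 ± 1.60 and -4.22 ± 1.16 (SE; edgeR adjusted p = 0.0416 and 0.0114). The groups overlapped for both. Sema3b was at 30.1 CPM in normal library 3 and at 0.122 to 3.97 CPM in the other normal libraries. Sema3g was at 142 CPM in normal library 2 and at 1.98 to 28.8 CPM in the others. In the hypoxia list, to which Vegfa is usually counted, 7 of 21 rose and 1 fell (median 1.11). Egln3 and Slc2a1, an oxygen sensor and a glucose transporter, rose by 6.88 ± 1.31 and 5.51 ± 0.79 (log2, SE; edgeR adjusted p = 0.000599 and 2.57e-05). Epas1, the HIF subunit of endothelium, fell 5.25-fold and Hif1a, the widely expressed subunit, rose 5.25-fold (edgeR adjusted p = 0.000432 and 0.000176). Vegfa itself fell in the same libraries.

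**Figure D5:**
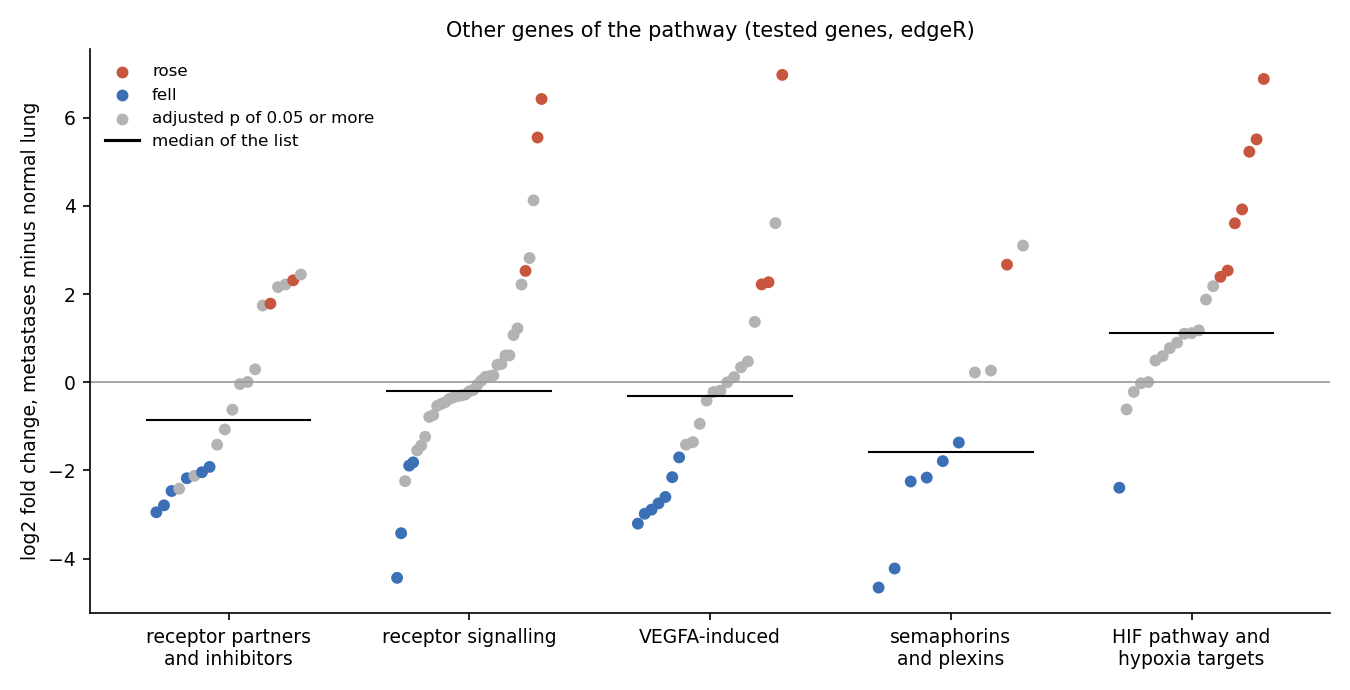
log2 fold change (metastases minus normal lung, edgeR) of the tested genes of 5 pathway lists, sorted within each list; red rose, blue fell, grey did not pass, and black bars are list medians. Medians run from -1.58 (semaphorins and plexins) to 1.11 (HIF pathway and hypoxia targets).

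Genes whose level followed a member within the groups were named by Pearson r of log2 CPM over the 10 libraries. Each group mean was taken out first, and the 3 highest of 11822 coefficients are given. Such genes need not share the change between groups. With group means left in, their r ran from -0.53 (Prrg2 with Nrp2) to 0.99 (Ednrb with Nrp1). They share the libraries and their depth, and the values are a description. For Nrp1 they were Csnk1a1 (0.989), Ednrb (0.977) and Clec1a (0.976). Ednrb, an endothelin receptor of lung capillaries, was at 938 CPM in metastasis library 3, in which Nrp1 was high, and at 76.0 to 314 CPM in the others. For Nrp2 they were Lsm4 (0.948), Prrg2 (0.943) and Ccbe1 (0.901). Prrg2 was low, at 2.23 ± 2.33 CPM in normal lung and 0.205 ± 0.115 CPM in metastases (SD, n = 5 each, edgeR adjusted p = 0.104). Ccbe1, a secreted matrix protein known from VEGFC processing, was at 4.13 to 18.1 CPM in normal lung and 347 to 488 CPM in metastases. For Kdr they were Ints11 (0.971), Trappc3 (0.969) and Spry1 (0.955), for Flt1 Fzd3 (0.966), Gpatch2 (0.961) and Tgfb1i1 (0.959), and for Flt4 Lats2 (0.971), Ints12 (0.937) and Mllt3 (0.933). Vegfa had Nfkbid (0.925), Gpx3 (0.920) and Chmp4b (0.908), Vegfb had Vwa1 (0.943), Capn12 (0.942) and Xylb (0.940), and Vegfc had Adsl (0.981), Pepd (0.974) and Med27 (0.912). Among the members, Kdr and Nrp1 stood at 0.88, Kdr and Flt4 at 0.72, Vegfa and Flt1 at 0.71, and Flt1 and Nrp1 at -0.01.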

How the data were processed

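RNA of sorted CD31+/CD45- cells was sequenced in 10 libraries as paired 100 bp reads from an amplification kit for total RNA, per the labels' protocols. The submitters' processing notes name the builds mm10 and GRCm38, and the tools DESeq2 1.6.3, HTSeq 0.6.1, Cufflinks 2.2.1 and TopHat2 2.0.13. Which annotation was counted, and whether by strand, is not given in the sources used here. The authors deposited raw counts per gene, with HTSeq summary categories that were kept out of library sizes, and a table of FPKM. Depth, 21.7 to 79.7 M gene counts per library, sets the counting error. Vegfb and Vegfc had the largest SEs of the tested members (1.30 and 1.08). Their counts ran from 18 to 4306 and from 21 to 2466 between libraries, and the cause of this spread was not tested. Pgf was too low to be tested.

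Counts of 24538 genes (7652 at 0 throughout) were filtered with filterByExpr, which left 11823, scaled by TMM and compared with edgeR 4.0.16 in R 4.3.3 (quasi-likelihood test, robust, no covariate, threshold 0.05, two-sided). SEs were derived as the size of the log2 fold change divided by the root of F. The fit was tested on simulated data. Levels against the pan-endothelial genes (log2 CPM, prior count 2) and ratios (log2 of FPKM + 0.1) were compared by exact permutation over 252 splits. The former had been planned with adjustment over the members and were adjusted over all tested genes in its place.

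Alternatives were DESeq2 1.42.0, limma 3.58.1 on FPKM with pseudocounts of 1 and 0.1, other scalings, filters, prior counts and thresholds, a block for the replicate number, and each library left out in turn. Sets of libraries were added after seeing the data. The members and lists were chosen with earlier results of these data known. Named were all members, the 2 largest called changes each way in a pathway list, the 2 most abundant markers of a list where a result needed them, and 3 genes most like each tested member. Named outside this rule, after their values were seen, were Prox1, Ccl21a, Ptprb, Nos3, Esm1, Angpt2, Hif1a, Krt5, Krt8, Cd68, Csf1r, Mrc1 and Vegfd. Gene positions are from GENCODE M21 (GRCm38). Figures were drawn with matplotlib 3.10.9.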

Additional observations from a re-analysis of the deposited data

Results flagged for a closer look

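In 46 groups of 5 libraries (levels, levels against the endothelial mean, and ratios), 7 held a library set apart from the others by Dixon's criterion. It marks about 1 in 20 groups by chance where values are independent and normally distributed. These groups share values, so their number cannot be read against that rate. Vegfb was at 51.5 CPM in normal library 2, against 0.447 to 2.11 CPM in the other normal libraries. Vegfc was at 33.3 CPM in metastasis library 1, against 3.13 to 11.6 CPM. Pgf was at 4.56 CPM in metastasis library 2, against 0 to 0.0496 CPM, and its log2 ratio to Vegfa there was -3.85, against -9.26 to -7.93. Nrp1 was at 2194 CPM in metastasis library 3, against 146 to 689 CPM. Flt1 lay 0.37 above the endothelial mean in normal library 1 (log2), against 1.20 to 1.52 in the others. The log2 ratio of Flt4 to Kdr was -1.60 in normal library 4, against -2.40 to -2.19.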

How the results depend on the processing

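Nrp2 stayed called and higher under all 25 alternatives to the edgeR fit, and Kdr and Flt4 stayed called under all but the pan-endothelial scale. With that scale 0 members and 0 pathway genes were called lower, beside 0.169% of all tested genes. On it 67 pathway genes were called higher, beside 59.6% of all tested genes. Vegfa, Flt1, Nrp1 and Vegfc turned to 1.06, 0.47, 0.11 and 2.17. Fallen members numbered 3 in libraries 1 and 2 alone and without metastasis libraries 4 and 5, and 4 to 5 when each library was left out in turn. Libraries 1 and 2 alone had 7 pathway genes higher and 11 lower, beside 3.87% and 1.60% of all tested genes. The set without metastasis libraries 4 and 5 had 12 lower, beside 4.21%, and a threshold of 0.01 left 14 lower. Leaving out each library gave 14 to 18 higher and 19 to 28 lower. No share over all genes is given for that threshold or for single libraries left out. The same holds for the levels against the endothelial mean with log2(FPKM + 1) below, so these counts cannot be set against one. Vegfb was at -0.71 in libraries 1 and 2 alone and -0.066 without metastasis libraries 4 and 5, and ran from -0.48 to 3.65 with single libraries left out. Vegfc was at 0.25 (FPKM + 0.1), 0.010 (replicate block), 0.55 (libraries 1 and 2 alone) and 0.070 (without metastasis libraries 4 and 5), and ran from -0.95 to 0.24. Members above the endothelial mean numbered 2 with log2(FPKM + 1) and 0 without metastasis libraries 4 and 5, and ratios that passed numbered 2 with FPKM + 1, 0 without those libraries, and 1 to 3 with single libraries left out. Pgf is listed at 0 FPKM in 7 libraries, so its ratio to Vegfa rests on the pseudocount there. With single libraries left out, Nrp1 against the endothelial mean ran from -0.81 to 0.086 and Flt4 to Kdr from -0.47 to 0.038. The cause of these changes was not tested.

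The replicate numbers are shared by both groups, but deviations of same-numbered libraries correlated at only 0.000682 to 0.142, and 3 of 5 normal libraries correlated best with their own number. With the replicate number as a block, 1 member rose and 5 fell in edgeR, and over all genes 1435 rose and 1180 fell. Sign flips over the 5 number pairs left 0 members above the endothelial mean and 0 ratios past the threshold, but cannot give a p under 0.0625.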

Other observations

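Vegfd, the remaining VEGF ligand of FLT4, was as uneven as Vegfb and Vegfc. It was at 0.367, 1.66, 11.3, 31.8 and 14.7 CPM in normal libraries 1 to 5 and at 0.372, 0.122, 39.1, 2.85 and 7.40 CPM in metastasis libraries 1 to 5. Metastasis library 3 was the highest of all 10, and in its ligand FPKM Vegfd held 43.2%, against 0.0312 to 4.09% in the other metastasis libraries. The log2 fold change was -0.26 ± 1.29 SE (edgeR adjusted p = 0.917). Lyve1, a receptor found on lymphatic and some lung capillary cells, was at 512 ± 663 CPM in metastases and 1022 ± 315 CPM in normal lung (SD, n = 5 each; edgeR adjusted p = 0.224), and the metastasis libraries ranged from 92.1 to 1685 CPM.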
